A study of Homo sapiens with 30 samples.

Results

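The annexins are proteins that bind acidic membrane lipids when calcium is present, and transcription of their genes was followed here in A549 cells, an established human lung adenocarcinoma line. The 9 annexin genes described (ANXA1, ANXA2, ANXA3, ANXA4, ANXA5, ANXA6, ANXA7, ANXA8 and ANXA11) are 9 of the 58780 rows of the deposited count table, and all 9 passed the filter on low counts, as did 22919 genes in all. They were chosen by name, with counts and fold changes of all 15 groups of these libraries in view and with no threshold on any of them. Their levels are therefore descriptions, and no test below supports the choice itself. Of the annexins outside the list, ANXA10 had 0 to 5 counts per library, too few to test, and ANXA9 and ANXA13 stood at 2.00 and 1.61 CPM and 2.11 and 1.41 CPM in untreated cells.

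The assay was PRO-seq (precision run-on sequencing), in which polymerases already on the DNA add labelled nucleotides, so that the RNA counted was being made at the time. Dexamethasone (Dex, a glucocorticoid drug) was used at 100 nM. GSK591, which blocks the arginine methyltransferase PRMT5, and MS023, which blocks the Type I enzymes, were each used at 1 µM. All cells, untreated ones included, had 0.01% DMSO. The 30 libraries form 15 groups of 2. These are untreated cells, and cells given Dex for 15 min or for 3 h. Others had Dex and GSK591, or Dex and MS023, together for 3 h. Others had GSK591 or MS023 for 2, 4 or 7 days. The last were labelled as GSK591 or MS023 for 7 days and then Dex for 15 min or 3 h. The untreated group is labelled with 15 min of DMSO and is the control at every time, so days in culture and the inhibitors cannot be told apart. The labels do not say whether the 2 libraries of a group came from separate cultures, and p-values then measure only the spread between these libraries.

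Annexins share a core that binds calcium and membrane and differ in the N-terminal tail that recruits partners. ANXA1 is the classic glucocorticoid-regulated member, an anti-inflammatory protein that acts through formyl peptide receptors and restrains phospholipase A2. ANXA2 pairs with S100A10 at the plasma membrane, where the complex binds plasminogen and the large scaffold protein AHNAK. Several members help to seal damaged plasma membrane, ANXA5 binds exposed phosphatidylserine, and ANXA11 tethers RNA granules to lysosomes.

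Total counts per library ran from 8441211 to 13069598, and mitochondrial genes took 58.7% to 78.7% of them. Dex acted in these libraries: PER1, a direct target of the glucocorticoid receptor, rose by 2.10 (log2) at 15 min and 1.88 at 3 h. Levels below are in CPM, the usual counts relative to library size, after scaling by the trimmed mean of M-values (TMM). The 8 A549 markers summed to 897 to 1940 CPM per library, although the epithelial markers CDH1 and EPCAM stood at only 1.56 and 2.32 CPM and 1.67 and 2.42 CPM in untreated cells. The 3 leukocyte markers summed to 0.148 to 1.38 CPM, the 3 endothelial markers to 0.208 to 2.24 CPM and the 4 fibroblast markers to 3.14 to 9.59 CPM. One library stood apart, replicate 2 of Dex with MS023. It correlated with its partner at r = 0.924 across 11117 genes, against 0.960 to 0.984 in the other 14 groups. Processed pseudogenes took 1.80% of its counts outside mitochondrial genes, against 1.04% to 1.39% in the other 29 libraries. Leaving it out of the fit, chosen after the data were seen, lost no call of a member and added some, each given beside its result. For Dex at 15 min and at 3 h a larger share of all genes was also called in that fit.

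The promoters of 4 members with unlike responses to Dex are printed so that their starts can be compared: ANXA1, ANXA2, ANXA3 and ANXA6. Each is the 250 bases before a RefSeq transcription start on GRCh38.p14, written 5′ to 3′ along the gene's strand. The windows are chr9:73151615-73151864 (plus strand) for ANXA1, chr15:60397987-60398236 (minus) for ANXA2, chr4:78551520-78551769 (plus) for ANXA3 and chr5:151157780-151158029 (minus) for ANXA6. Of the 9 genes, 8 had an entry, with 12 windows in all, and ANXA8 did not.
ANXA1: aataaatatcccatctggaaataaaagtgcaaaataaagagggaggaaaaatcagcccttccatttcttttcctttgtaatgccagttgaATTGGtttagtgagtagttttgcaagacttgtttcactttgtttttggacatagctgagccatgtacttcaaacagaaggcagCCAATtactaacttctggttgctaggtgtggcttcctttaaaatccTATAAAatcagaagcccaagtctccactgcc
ANXA2: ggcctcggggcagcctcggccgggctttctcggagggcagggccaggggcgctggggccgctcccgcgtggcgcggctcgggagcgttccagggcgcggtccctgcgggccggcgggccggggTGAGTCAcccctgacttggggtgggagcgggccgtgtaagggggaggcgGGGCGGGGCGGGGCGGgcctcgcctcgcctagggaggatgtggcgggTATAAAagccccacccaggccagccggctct
ANXA3: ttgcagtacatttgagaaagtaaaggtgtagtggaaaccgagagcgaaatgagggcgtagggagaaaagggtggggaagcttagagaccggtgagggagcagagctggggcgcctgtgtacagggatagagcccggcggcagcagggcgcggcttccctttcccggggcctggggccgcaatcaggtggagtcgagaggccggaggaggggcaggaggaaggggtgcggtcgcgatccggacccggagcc
ANXA6: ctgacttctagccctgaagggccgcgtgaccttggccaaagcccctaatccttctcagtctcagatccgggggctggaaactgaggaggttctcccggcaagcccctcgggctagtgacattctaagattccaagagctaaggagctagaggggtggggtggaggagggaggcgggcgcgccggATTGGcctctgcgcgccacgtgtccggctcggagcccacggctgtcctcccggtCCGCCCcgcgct
Capitals mark matches, on either strand, to the TATA box TATAAA, the GC box GGGCGG, the CCAAT box, the AP-1 site TGANTCA or the glucocorticoid half-site AGAACA. Overlapping matches run together. The ANXA1 window, with 38.4% G and C against a median of 58.0% over all 35116 windows, held 1 TATA box and 2 CCAAT boxes. The ANXA2 window, with 78.0% G and C, held 1 TATA box, 1 AP-1 site and 3 GC boxes in a row. The printed ANXA6 window held 1 CCAAT box and 1 GC box, and the ANXA3 window held none of these motifs. A further ANXA6 window, chr5:151141685-151141934, is not printed and held none of them either. On GENCODE 29 the ANXA2 and ANXA3 windows lie wholly inside the annotated gene, and those of ANXA1 and ANXA6 partly. Of all windows, 10.7% held the TATA box, 42.6% the GC box, 32.0% the CCAAT box, 6.57% the AP-1 site and 12.4% the half-site. Among the 12 annexin windows the half-site was in 1, at ANXA11, and the full glucocorticoid response element (the half-site and its reverse complement 3 bases apart) was in none, as in all but 1 of the 35116. That says only that these letters are not in these 250 bases.

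The untreated levels of the family spanned a wide range. The sources do not say whether exons or whole genes were counted. Gene spans run from 18637 bases (ANXA1) to 182676 bases (ANXA4), so the order below rests on exons having been counted. Per kilobase of exon, ANXA2 stood highest at 20.5 and 20.6 CPM per kb, then ANXA1 at 6.12 and 6.66 CPM per kb. ANXA8 (3.82 and 4.23 CPM per kb) and ANXA5 (3.96 and 4.08 CPM per kb) overlapped, as did ANXA11 (2.88 and 3.34 CPM per kb) and ANXA4 (2.86 and 3.26 CPM per kb). ANXA3 (1.59 and 2.24 CPM per kb) and ANXA7 (1.36 and 1.76 CPM per kb) also overlapped, and ANXA6 was lowest at 0.687 and 1.07 CPM per kb. On GENCODE 29, ANXA2 spans 60347134 to 60402883 of chromosome 15 and ANXA1 73151757 to 73170393 of chromosome 9. No exon of 8 members overlaps another gene, and ANXA7 shares 105 bases with a gene on the opposite strand. ANXA8 has a near-identical copy, ANXA8L1, between which reads can be split, so the values of ANXA8 are uncertain.

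**Figure D1:**
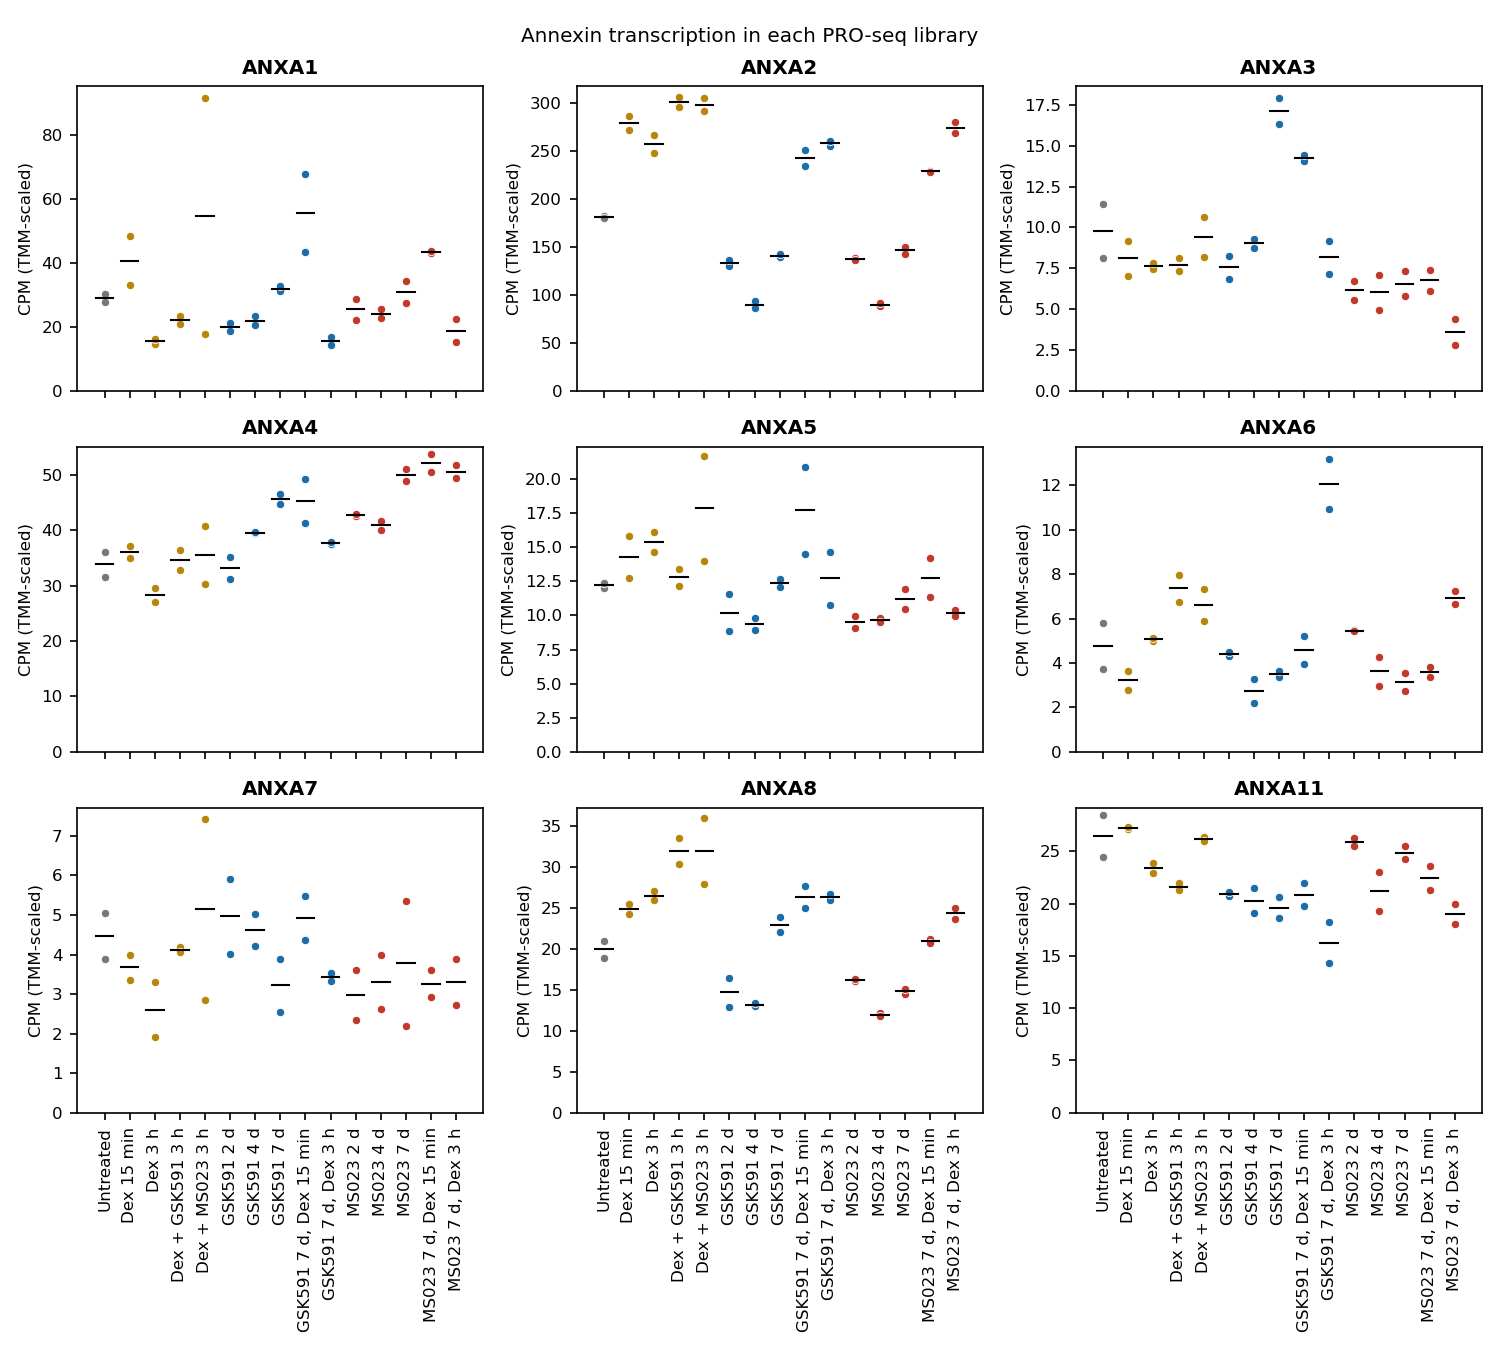
CPM (TMM-scaled, linear axes) of each of the 9 annexins in each of the 30 libraries, by group. Points are libraries and black bars are means of 2, with untreated cells in grey, Dex without long inhibitor treatment in gold, GSK591 in blue and MS023 in red. ANXA2 moves up and down with close replicates, and ANXA1 has a single point at 91.5 CPM in Dex with MS023.

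ANXA2 rose with Dex in all 6 comparisons of Dex with the same cells without it. It stood at 182 and 181 CPM in untreated cells, 272 and 287 CPM after 15 min of Dex and 267 and 248 CPM after 3 h, with no overlap between treated and untreated libraries. The log2 fold change was 0.62 at 15 min (SE 0.09, adjusted p = 6.03e-06) and 0.51 at 3 h (SE 0.09, adjusted p = 5.84e-05; edgeR quasi-likelihood, Benjamini-Hochberg over all genes tested). At 15 min ANXA2 was the 1 member of 9 that was called, beside 1.26% (0.96% higher, 0.301% lower) of all genes. At 3 h 2 of 9 were called, both higher, beside 10.5% (6.11% higher, 4.41% lower) of all genes.

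The other was ANXA8, which went from 18.9 and 21.0 CPM to 27.0 and 25.9 CPM at 3 h (log2 fold change 0.41, SE 0.13, adjusted p = 0.0350, edgeR). That call was lost under DESeq2 (adjusted p = 0.104), without the filter on low counts, and without any 1 of the 4 libraries compared (adjusted p = 0.105 without replicate 2 of Dex at 3 h). The median over the 9 members was 0.09 at 15 min and -0.17 at 3 h (log2), where all genes had -0.01 at each time.

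After 7 days of inhibitor ANXA2 started from a lower level and again rose with Dex. After GSK591 it went from 139 and 143 CPM to 252 and 235 CPM at 15 min and 256 and 261 CPM at 3 h. After MS023 it went from 150.1 and 143 CPM to 229 and 228 CPM at 15 min and 269 and 280.0 CPM at 3 h. Every library with Dex lay above every library without it. The log2 fold changes were 0.78 and 0.87 after GSK591 and 0.64 and 0.90 after MS023, with adjusted p-values of at most 2.76e-06 in edgeR. The 3 h response minus that without inhibitor was 0.36 after GSK591 (95% interval 0.10 to 0.62, adjusted p = 0.294, edgeR) and 0.40 after MS023 (0.14 to 0.66, adjusted p = 0.221, edgeR), and neither difference passed. Keratin markers of the line moved in the same comparisons at 3 h without inhibitor, KRT8 by 0.93, KRT18 by 0.61 and KRT7 by 0.57 (log2), and their part in the annexin values was not tested.

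**Figure D2:**
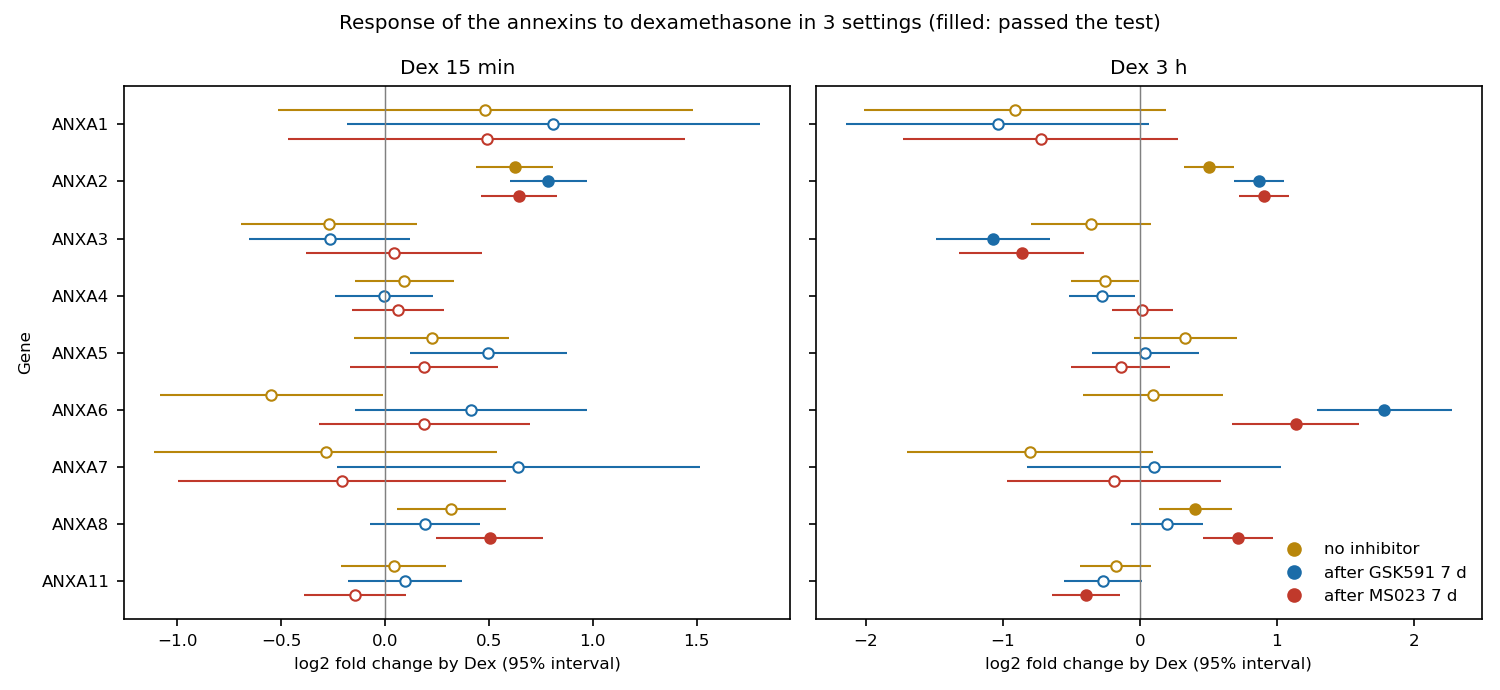
Log2 fold change by Dex, with 95% intervals, of each annexin at 15 min and at 3 h: without inhibitor (gold), after 7 days of GSK591 (blue) and after 7 days of MS023 (red). Filled points passed at an adjusted p of 0.05 in the TMM fit and open points did not. ANXA2 is filled in all 6 comparisons (under total-count scaling 1 of them, at 15 min after MS023, no longer passes, at 0.50), and ANXA6 at 3 h goes from 0.10 without inhibitor to 1.78 after GSK591.

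S100A10 rose in the same 6 comparisons as ANXA2, and AHNAK and ANXA2R in some of them. S100A10, the light chain of the complex, went from 13.5 and 17.3 CPM to 25.8 and 32.4 CPM at 15 min and 28.0 and 31.0 CPM at 3 h. Its log2 fold changes were 0.91 and 0.93 without inhibitor, 1.08 and 0.96 after GSK591, and 0.74 and 0.96 after MS023, all called by edgeR. AHNAK stood at 87.6 and 75.2 CPM in untreated cells, 116 and 144 CPM at 15 min, which did not pass, and 265 and 278 CPM at 3 h (log2 fold change 1.74, SE 0.21, adjusted p = 2.39e-05, edgeR). At 3 h it rose by 1.44 after GSK591 and 2.15 after MS023. ANXA2R, named as a receptor for ANXA2, rose from 4.12 and 5.04 CPM to 10.5 and 8.60 CPM at 15 min and 14.7 and 13.9 CPM at 3 h. After MS023 it rose by 0.79 and 1.55 at 15 min and 3 h, and after GSK591 by 0.87 at 3 h, while at 15 min after GSK591 it went from 5.00 and 5.23 CPM to 6.28 and 3.85 CPM, which did not pass. In that comparison 1 of the 14 partner genes tested was called, beside 2.09% of all genes. Without inhibitor 2 other transcripts named for ANXA2R were also higher with Dex. The antisense ANXA2R-AS1 went from 11.6 and 11.4 CPM to 24.0 and 23.2 CPM at 15 min. The sense-overlapping ANXA2R-OT1 went from 15.5 and 14.0 CPM to 26.4 and 23.3 CPM at 3 h. Strand use in counting is not given, and whether they share reads with ANXA2R was not tested.

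**Figure D3:**
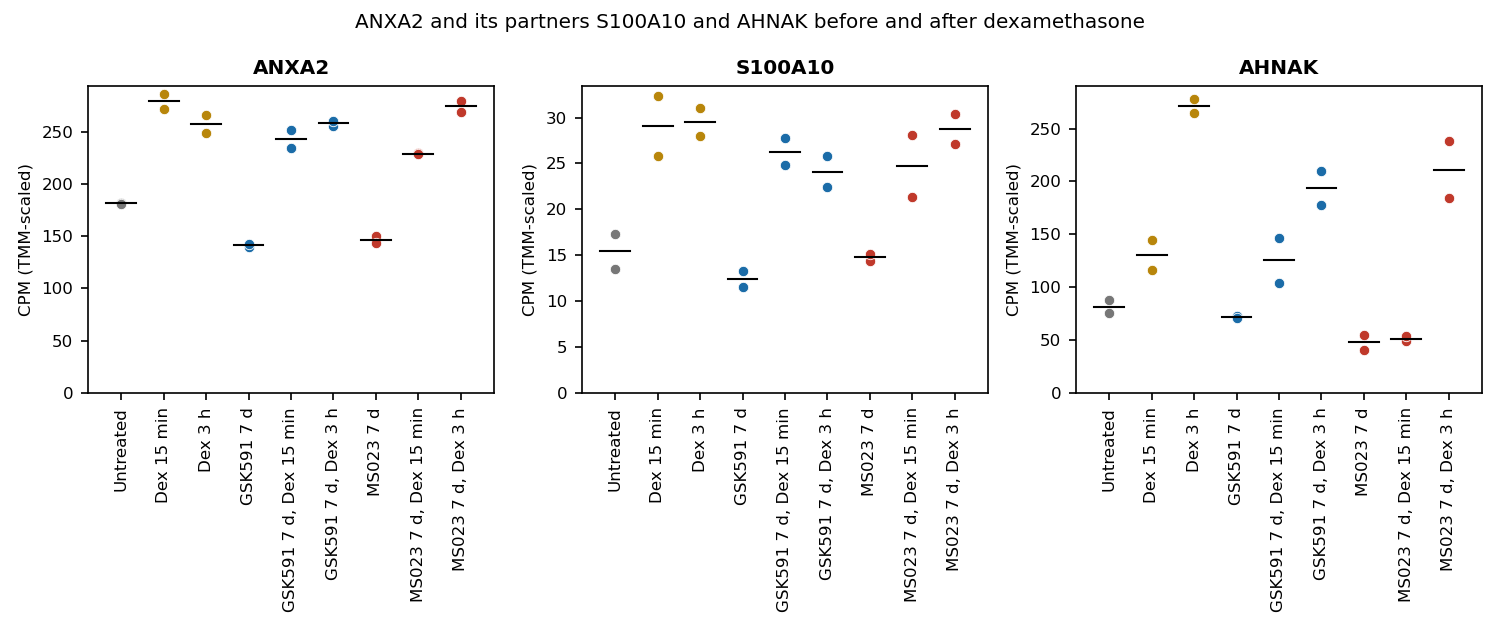
CPM (TMM-scaled, linear axes) of ANXA2 and its partners S100A10 and AHNAK in untreated cells, after Dex, and after 7 days of inhibitor with and without Dex. Points are libraries and bars are means of 2. ANXA2 and S100A10 are already higher at 15 min, whereas AHNAK after MS023 stands at 40.7 and 54.6 CPM without Dex, 48.6 and 53.6 CPM at 15 min and 238 and 184 CPM at 3 h.

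ANXA1 stood higher at 15 min and lower at 3 h of Dex, with wide scatter, and none of these changes passed in the fit of all 30 libraries. Untreated cells had 30.4 and 27.9 CPM, Dex for 15 min gave 33.2 and 48.3 CPM and Dex for 3 h gave 14.7 and 16.4 CPM. After GSK591 the values were 31.3 and 32.7 CPM without Dex, 43.3 and 67.9 CPM at 15 min and 14.3 and 16.9 CPM at 3 h. After MS023 they were 27.6 and 34.5 CPM without Dex, 43.2 and 43.9 CPM at 15 min and 22.4 and 15.2 CPM at 3 h. In each setting both libraries at 15 min lay above, and both at 3 h below, the 2 libraries without Dex. The share of all genes with such an order was not computed, so this is a description only.

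The log2 fold changes of ANXA1 at 15 min were 0.48, 0.81 and 0.49 without inhibitor, after GSK591 and after MS023, and at 3 h they were -0.91, -1.04 and -0.72. None passed in the fit of all 30 libraries (adjusted p = 0.328, 0.267 and 0.416 at 3 h, edgeR). The biological coefficient of variation of ANXA1 was 31.3%, the highest of the 9 members, and Dex with MS023 gave 17.7 CPM in replicate 1 and 91.5 CPM in replicate 2, the library that stood apart. Leaving that library out was chosen after the data were seen. Without that library the values at 3 h were -0.91 (SE 0.25), -1.04 and -0.72, and all 3 were called lower (adjusted p = 0.0250, 0.0118 and 0.0439, edgeR). The values at 15 min did not pass there (adjusted p = 0.587, 0.0634 and 0.352, edgeR).

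ANXA2P2, a processed pseudogene of ANXA2, stood at 68.1 CPM in the library that stood apart and at 1.91 to 22.7 CPM in the others. In 14 of 15 groups the library of the pair with more ANXA2P2 also had more ANXA1, against 6 of 15 for ANXA2 and 5 to 12 of 15 for the other 7 members. For Dex at 15 min ANXA2P2 stood at 5.13 and 17.3 CPM, and for Dex at 15 min after GSK591 at 6.69 and 22.7 CPM. Its part in the values of ANXA1 was not tested.

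The receptors of ANXA1 could not be followed, since FPR1, FPR2 and FPR3 had at most 4 counts in any library. PTGS2, the inducible enzyme that makes prostaglandins from arachidonic acid, stood at 4.45 and 5.14 CPM in untreated cells and 5.53 and 6.23 CPM after 3 h of Dex, which did not pass. It rose with GSK591 by 1.24 and 1.26 (log2) at 2 and 4 days and with MS023 by 1.39, 1.84 and 0.85 at 2, 4 and 7 days. Dex for 3 h lowered it after both inhibitors, with log2 fold changes of -0.99 and -0.97.

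ANXA6, an endosomal annexin with a doubled core, rose with 3 h of Dex after the inhibitors. Without inhibitor it stood at 5.78 and 3.73 CPM in untreated cells and 5.00 and 5.13 CPM at 3 h, which overlap (log2 fold change 0.10, SE 0.25, adjusted p = 0.874, edgeR). After GSK591 it went from 3.37 and 3.62 CPM to 10.9 and 13.2 CPM (log2 fold change 1.78, SE 0.25, adjusted p = 2.60e-07, edgeR). After MS023 it went from 3.54 and 2.75 CPM to 7.25 and 6.64 CPM (log2 fold change 1.14, SE 0.23, adjusted p = 0.000286, edgeR). After either inhibitor the libraries with and without Dex did not overlap. At 15 min ANXA6 stood at 3.65 and 2.80 CPM without inhibitor, 3.96 and 5.20 CPM after GSK591 and 3.37 and 3.83 CPM after MS023, and none passed.

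The difference between these responses was tested directly. The 3 h response of ANXA6 was larger after GSK591 than without inhibitor by 1.69 (log2, SE 0.36, 95% interval 0.97 to 2.40, adjusted p = 0.0185, edgeR interaction term). It was the 1 member of 9 called, beside 0.223% (0.0393% higher, 0.183% lower) of all genes. The interaction with MS023 was 1.04 (0.35 to 1.73, adjusted p = 0.241, edgeR) and did not pass. ANXA6 had only 22 to 115 counts per library, and the GSK591 call was lost without any of 6 of the 8 libraries compared. It was also lost under total-count scaling (1.71, adjusted p = 0.9999, edgeR), where 0.0% of all genes were called. The value was 1.34 without replicate 1 of untreated cells, 1.66 and 1.70 without replicate 1 or 2 of Dex at 3 h, 1.63 and 1.73 without replicate 1 or 2 of GSK591 at 7 days, and 1.54 without replicate 2 of GSK591 with Dex at 3 h. When the inhibitors were given together with Dex for 3 h, ANXA6 stood at 7.96 and 6.76 CPM with GSK591 and 5.91 and 7.34 CPM with MS023.

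For the MS023 interaction at 3 h 0 of 9 members were called in edgeR, beside 0.223% (0.0785% higher, 0.144% lower) of all genes, with ANXA2 and ANXA6 at an unadjusted p below 0.05. DESeq2 gave no adjusted p for some members there. At 15 min 0 of 9 were called for either interaction by edgeR, beside 0.00436% (0.0% higher, 0.00436% lower) of all genes for GSK591 and 0.00436% (0.00436% higher, 0.0% lower) for MS023. At an unadjusted p below 0.05 there were 1 (ANXA6) and 0, and DESeq2 called 0 for both.

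Dex lowered ANXA3 after the inhibitors. ANXA3 is a member known from neutrophil granules and epithelial tumours. After GSK591 it stood at 17.9 and 16.3 CPM without Dex, 14.1 and 14.4 CPM at 15 min and 7.17 and 9.17 CPM at 3 h (3 h: -1.07, SE 0.21, adjusted p = 0.000162, edgeR). After MS023 it went from 5.81 and 7.31 CPM to 2.78 and 4.43 CPM at 3 h (-0.86, SE 0.23, adjusted p = 0.00676, edgeR). Neither setting had an overlap at 3 h. Without inhibitor it went from 11.5 and 8.16 CPM to 7.44 and 7.81 CPM (-0.36, SE 0.22, adjusted p = 0.340, edgeR), and the interactions of -0.71 and -0.50 did not pass. The call after MS023 was lost without replicate 2 of MS023 at 7 days (-0.68) or replicate 1 of MS023 with Dex at 3 h (-0.56).

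After GSK591 Dex called 1 of 9 members at 15 min (higher), beside 2.09% (1.07% higher, 1.03% lower) of all genes, and 3 of 9 at 3 h (2 higher, 1 lower), beside 9.85% (5.39% higher, 4.46% lower). After MS023 it called 2 of 9 at 15 min (both higher), beside 2.07% (1.23% higher, 0.842% lower), and 5 of 9 at 3 h (3 higher, 2 lower), beside 11.1% (5.72% higher, 5.38% lower). ANXA8 was among the higher ones after MS023, going from 14.4 and 15.1 CPM to 21.2 and 20.7 CPM at 15 min (0.50, SE 0.13) and 23.7 and 25.0 CPM at 3 h (0.72, SE 0.13). ANXA8 at 15 min was no longer called under DESeq2 (adjusted p = 0.0592) or without any 1 of the 4 libraries. After GSK591 it stood at 23.8 and 22.0 CPM without Dex and 25.9 and 26.7 CPM at 3 h, which did not pass. ANXA11 went from 24.3 and 25.5 CPM with MS023 to 20.0 and 18.0 CPM at 3 h (-0.39, SE 0.12, adjusted p = 0.0301, edgeR), a call lost under DESeq2 and without any 1 of the 4 libraries.

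Adding an inhibitor together with Dex for 3 h called 0 of 9 members against Dex alone in edgeR, beside 0.0% of all genes with GSK591 and 0.196% (0.135% higher, 0.0611% lower) with MS023. At an unadjusted p below 0.05 there were 4 with GSK591 (ANXA2, ANXA4, ANXA6 and ANXA8) and 5 with MS023 (ANXA1, ANXA2, ANXA4, ANXA7 and ANXA8), and all 9 fold changes with MS023 were positive. DESeq2 called 0 with GSK591. With MS023 it called ANXA1 (1.85, adjusted p = 0.0262), for which edgeR gave 1.83, SE 0.50 (adjusted p = 0.129). Without the library that stood apart the value was 0.19. Without the other library of that group ANXA1, ANXA4 and ANXA7 were called higher by edgeR. ANXA2 stood at 296 and 307 CPM with GSK591 and 305 and 292 CPM with MS023, differences from Dex alone of 0.23 (0.04 to 0.41) and 0.21 (0.03 to 0.39).

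Relative to the other genes, as scaled by TMM, the inhibitors alone lowered ANXA2, most at 4 days. GSK591 gave 130.3 and 136 CPM at 2 days, 86.6 and 93.3 CPM at 4 days and 139 and 143 CPM at 7 days, against 182 and 181 CPM in untreated cells. MS023 gave 139 and 137 CPM, 88.6 and 91.1 CPM and 150.1 and 143 CPM at the same times. No treated library overlapped the control. The log2 fold changes were -0.44, -1.01 and -0.36 with GSK591 and -0.40, -1.01 and -0.31 with MS023, and all 6 were called by edgeR. These 6 comparisons share the 2 untreated libraries. The call at 7 days of MS023 was lost without any 1 of its 4 libraries, that at 2 days of GSK591 without replicate 1 of GSK591 (-0.41) and that at 7 days of GSK591 without replicate 1 of GSK591 (-0.35). GSK591 minus MS023 at 2, 4 and 7 days was -0.05 (-0.23 to 0.14), 0.00 (-0.19 to 0.19) and -0.06 (-0.24 to 0.13), none of which passed.

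These changes are relative to the other nuclear genes. Scaled by total counts, of which mitochondrial genes hold the larger part, the median of all genes moved by 0.68, 0.74 and 1.02 (log2) at 2, 4 and 7 days of MS023, by 0.29, 0.42 and -0.03 with GSK591, and by 0.31 and 0.15 with Dex at 15 min and 3 h. On that scale 99.5% of all calls at 7 days of MS023 were higher, against 52.3% with TMM. ANXA2 stood there at 0.28, -0.27 and 0.71 with MS023, the last called higher (adjusted p = 0.0017, edgeR). With GSK591 it stood at -0.15, -0.60 and -0.39, and only the fall at 4 days was called (adjusted p = 0.0280, edgeR). Relative to that median ANXA2 stood at -0.40, -1.01 and -0.31 with MS023 and at -0.44, -1.01 and -0.35 with GSK591.

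With GSK591 1 of 9 members was called at 2 days (lower), 4 at 4 days (lower) and 4 at 7 days (2 higher, 2 lower), beside 5.64% (3.19% higher, 2.45% lower), 17.2% (8.91% higher, 8.28% lower) and 13.2% (6.68% higher, 6.52% lower) of all genes. With MS023 2 were called at 2 days (lower), 3 at 4 days (lower) and 3 at 7 days (1 higher, 2 lower), beside 10.4% (6.18% higher, 4.21% lower), 14.2% (7.8% higher, 6.37% lower) and 13.6% (7.13% higher, 6.51% lower). The members' median log2 fold change was -0.34, -0.38 and 0.02 with GSK591 and -0.30, -0.38 and -0.25 with MS023, and that of all genes lay between 0.00 and 0.01.

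ANXA3 took different courses under the inhibitors. With GSK591 it stood at 6.86 and 8.27 CPM at 2 days, 9.32 and 8.72 CPM at 4 days and 17.9 and 16.3 CPM at 7 days, and with MS023 at 5.57 and 6.74 CPM, 4.97 and 7.12 CPM and 5.81 and 7.31 CPM. Against untreated cells (11.5 and 8.16 CPM) it was called higher at 7 days of GSK591 (0.81, SE 0.20, adjusted p = 0.00350, edgeR). With MS023 it was called lower at 2 and 4 days (-0.66 and -0.69, adjusted p = 0.0404 and 0.0195, edgeR) and not at 7 days (-0.57, adjusted p = 0.0564), where it was called without the library that stood apart (-0.58, adjusted p = 0.0362, edgeR). At 7 days it was higher with GSK591 than with MS023 by 1.39 (SE 0.20, 95% interval 0.98 to 1.79, adjusted p = 1.41e-06, edgeR). Under total-count scaling that difference was 0.35 and was not called (adjusted p = 0.235, edgeR), where the median of all genes was -1.07. The rise with GSK591 was lost without replicate 2 of untreated cells (0.58) or replicate 1 of GSK591 (0.74). The falls with MS023 were lost under DESeq2, without replicate 1 of untreated cells (-0.40 and -0.43) or without replicate 1 of MS023 (-0.55 and -0.46), and that at 2 days also without replicate 2 of MS023 (-0.81).

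ANXA8 was the member whose group means followed ANXA2 most closely, with Pearson's r = 0.928 of log2 CPM over the 15 groups, a description of means that share their libraries. With GSK591 it stood at 12.9 and 16.4 CPM, 13.0 and 13.3 CPM and 23.8 and 22.0 CPM at 2, 4 and 7 days, and with MS023 at 16.0 and 16.3 CPM, 12.2 and 11.7 CPM and 14.4 and 15.1 CPM. It was called lower at 4 days of both (-0.60 and -0.74) and at 7 days of MS023 (-0.43), the last being lost under DESeq2 and without any 1 of its 4 libraries. At 2 days of GSK591 it was called lower only without the library that stood apart (-0.43, adjusted p = 0.0390, edgeR), under DESeq2 size factors or with the compared groups alone, among the settings run. At 7 days it was higher with GSK591 than with MS023 by 0.63 (SE 0.13, adjusted p = 0.000811, edgeR), a difference that was -0.40 under total-count scaling. Its copy ANXA8L1 stood at 7.23 and 5.84 CPM in untreated cells, 8.25 and 7.64 CPM with GSK591 and 1.84 and 3.33 CPM with MS023 at 7 days. Between the inhibitors 0 of 9 members were called by edgeR at 2 days, 0 at 4 days and 2 at 7 days (ANXA3 and ANXA8), beside 2.69% (1.11% higher, 1.58% lower), 6.03% (2.51% higher, 3.52% lower) and 9.38% (4.91% higher, 4.47% lower) of all genes. At 2 and 4 days 2 members (ANXA4 and ANXA11) and 1 (ANXA3) had an unadjusted p below 0.05, and DESeq2 called 0.

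ANXA4, a member found mainly in epithelia, rose after 7 days of both inhibitors. It went from 36.0 and 31.6 CPM in untreated cells to 44.8 and 46.6 CPM with GSK591 (0.43, SE 0.12, adjusted p = 0.00959, edgeR) and 51.1 and 48.9 CPM with MS023 (0.56, SE 0.12, adjusted p = 0.000448, edgeR). At 2 and 4 days it stood at 35.2 and 31.3 CPM and at 39.5 and 39.6 CPM with GSK591, and at 42.5 and 42.9 CPM and at 41.7 and 40.1 CPM with MS023, and none of these passed. Without the library that stood apart, ANXA4 was called higher at 2 days of MS023 (0.34, adjusted p = 0.0275, edgeR) and lower with GSK591 than with MS023 at 2 days (-0.36, adjusted p = 0.0473, edgeR). The call with GSK591 was lost without replicate 2 of untreated cells (0.34) or replicate 2 of GSK591 (0.41). No response of ANXA4 to Dex passed.

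ANXA11 was lower with GSK591, at 19.1 and 21.5 CPM at 4 days and 18.6 and 20.6 CPM at 7 days against 28.5 and 24.5 CPM in untreated cells. The log2 fold changes of -0.38 and -0.43 passed (adjusted p = 0.0318 and 0.0215, edgeR). Both were lost under DESeq2, without replicate 1 of untreated cells (-0.27 and -0.33) and without either GSK591 library. ANXA6 was called lower at 4 days of GSK591, at 3.27 and 2.21 CPM (-0.78, adjusted p = 0.0397, edgeR), which was lost under DESeq2, without replicate 1 of untreated cells (-0.44) and without replicate 2 of GSK591 (-0.53).

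ANXA5 and ANXA7 passed in none of the 21 comparisons. ANXA5 ran from 8.85 to 21.7 CPM with a median of 12.0 CPM, the highest being in the library that stood apart. At 15 min of Dex after GSK591 it went from 12.7 and 12.1 CPM to 20.9 and 14.5 CPM (0.50, 95% interval 0.12 to 0.88, adjusted p = 0.187, edgeR). ANXA7, which binds the calcium sensor sorcin, had 18 to 76 counts per library and ran from 1.91 to 7.44 CPM. At 3 h of Dex its log2 fold change was -0.80 (95% interval -1.70 to 0.10).

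**Figure D4:**
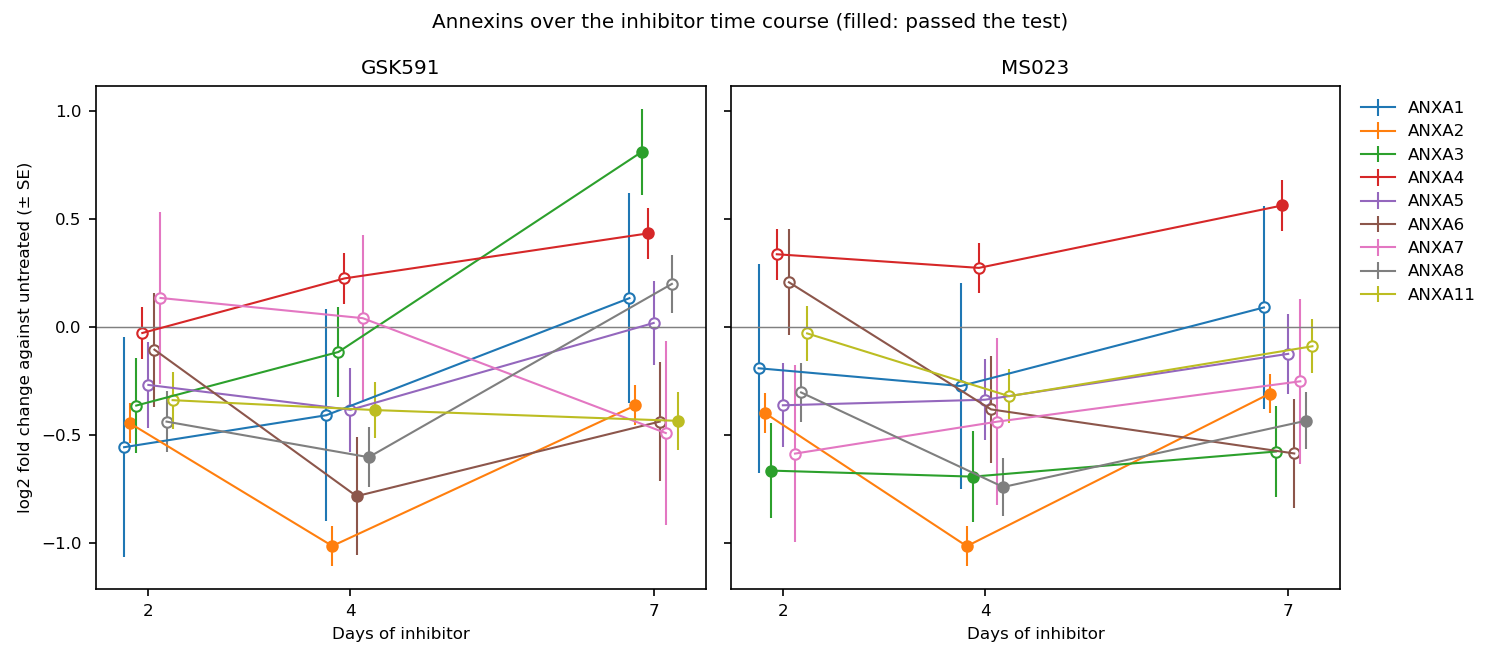
Log2 fold change against untreated cells (bars are 1 SE) of each annexin at 2, 4 and 7 days of GSK591 or MS023, in the TMM fit. Filled points passed and open points did not. ANXA2 reaches -1.01 at 4 days of both, and ANXA3 ends at 0.81 with GSK591 and -0.57 with MS023. Under total-count scaling 8 members, all but ANXA4, turn from negative to positive in at least 1 MS023 comparison. With GSK591 ANXA4, ANXA5 and ANXA6 do so at 2 days and ANXA1, ANXA3, ANXA5 and ANXA11 at 4 days, and ANXA5 turns to just below 0 at 7 days.

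Partner genes beyond ANXA2 were read from the same fit. Of the 18 partner and pathway genes 14 were tested, and PLG, which encodes plasminogen, had 0 to 9 counts. Dex for 3 h called 4 higher and 1 lower of 14 without inhibitor, with a median of 0.21, and 4 higher and 1 lower after each inhibitor, beside 10.5%, 9.85% and 11.1% of all genes called. Without inhibitor the rises were those of AHNAK, ANXA2R (1.64), S100A10 and S100A6 (0.69), a calcium sensor, and the fall was that of SRI, which encodes sorcin (-1.70, from 2.67 and 1.81 CPM to 0.850 and 0.488 CPM). After the inhibitors the fall was that of PTGS2. With the inhibitors alone, PLA2G4A, the cytosolic phospholipase A2, rose at 4 days by 1.95 with GSK591 and 1.51 with MS023, from 1.22 and 0.705 CPM to 4.32 and 3.11 CPM and 1.99 and 3.49 CPM. Relative to the other nuclear genes, AHNAK fell at 4 and 7 days of MS023, with log2 fold changes of -0.73 and -0.77.

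All 15 membrane repair genes were tested. MS023 called 4, 6 and 4 of them lower at 2, 4 and 7 days and 0 higher, with medians of -0.30, -0.19 and -0.09, beside 4.21%, 6.37% and 6.51% of all genes called lower. GSK591 called 1 lower at 2 days, 1 lower at 4 days and 3 higher at 7 days, beside 2.45% lower, 8.28% lower and 6.68% higher of all genes. MYOF, a ferlin that acts in membrane fusion, fell at 4 days of MS023 (-1.75, from 70.8 and 55.1 CPM to 18.5 and 19.0 CPM). CAVIN1, a coat protein of caveolae, went from 64.6 and 63.0 CPM to 33.2 and 31.6 CPM at 7 days of MS023 (-0.98). CAV1, the membrane protein of caveolae, was higher with GSK591 than with MS023 at 7 days by 0.96 (SE 0.13, adjusted p = 3.26e-07, edgeR), 1 of 5 repair genes of 15 higher there, with 0 lower, beside 4.91% and 4.47% of all genes. Dex for 3 h called 1 of 15 without inhibitor, CAV1 (0.54), beside 10.5% of all genes. Partner and repair values are also relative to the other nuclear genes. Under total-count scaling the median of all genes moved by 0.68, 0.74 and 1.02 (log2) at 2, 4 and 7 days of MS023. For GSK591 against MS023 at 7 days that median was -1.07. Partner and repair values on that scale are not given here.

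For the 3 members with the widest range of group means, the genes with the most similar pattern were sought by Pearson's r of log2 CPM over the 15 group means among 9618 genes. They were INPP4B (0.899), CDH2 (0.886) and PTPRF (0.883) for ANXA3, and APH1A (0.894), ESYT3 (0.888) and DNASE1L1 (0.876) for ANXA6. For ANXA1 they were ARHGAP5 (0.948), ADAM10 (0.906) and SLU7 (0.898), which were 0.926, 0.899 and 0.879 without the library that stood apart. The lists themselves changed without it. They became CDH2, COX2 (a gene other than PTGS2) and FOXQ1 for ANXA3, MED16, APH1A and ESYT3 for ANXA6, and ARHGAP5, ATXN10 and USP6NL for ANXA1. Of the 9 genes named first, 4 were among them. These are descriptions, and the points share library depth.

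The authors' deposited tables compare each treatment with untreated cells and use another counting. Shares of genes called in them are of the genes with an adjusted p, which number 13759 to 19916 of 28873 by table. In the authors' deposited table for Dex at 15 min ANXA1 (0.62) and ANXA2 (0.55) are called higher, 2 of 9 beside 3.93% of genes with an adjusted p. At 3 h the authors' deposited table has ANXA2 (0.53) and ANXA8 (0.32) higher and ANXA1 (-0.35), ANXA3 (-0.44) and ANXA11 (-0.47) lower, 5 of 9 beside 21.9%. With 3 h of Dex after 7 days of GSK591 the authors' deposited table gives ANXA6 1.14, and after 7 days of MS023 it gives ANXA3 -1.92. Over the 14 authors' deposited tables ANXA11 is lower in 13, ANXA4 higher in 9, ANXA2 higher in 7 and lower in 6, and ANXA7 called in 0. Of genes with an adjusted p, the authors' deposited tables call 21.7% and 19.8% for Dex with GSK591 and with MS023 (5 of 9 members each). They call 14.7%, 26.8% and 23.8% for GSK591 and 17.7%, 22.5% and 22.0% for MS023 at 2, 4 and 7 days. The members called there number 4, 3 and 5 with GSK591 and 7, 7 and 8 with MS023. With Dex at 15 min and 3 h after the inhibitors the authors' deposited tables call 6 and 5 of 9 after GSK591, beside 23.5% and 34.2%, and 6 and 7 of 9 after MS023, beside 24.4% and 30.0%.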

How the data were processed

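Whole-number counts per gene were deposited by the authors as 1 table of 58780 genes for 30 libraries, not normalised. Per the submitters' processing notes the build was hg38 and counting used featureCounts 2.0.1 of Subread, with strand use and feature type not given in the sources used here. The authors also deposited 14 tables against untreated cells: per the file headers these hold log2 fold changes and standard errors, p-values and adjusted p-values, and a mean signal per gene (baseMean). Whether their fold changes were shrunken was not tested, and their counting differs from that of the count table. All gene identifiers matched GENCODE 29.

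Counts were fitted with edgeR 4.0.16 (R 4.3.3, limma 3.58.1): TMM scaling, filterByExpr (minimum count 10, minimum total 15), robust quasi-likelihood, all 15 groups in 1 fit with 15 residual degrees of freedom, Benjamini-Hochberg over 22919 genes, threshold 0.05. Common biological variation came to 10.6%, with 34.1 prior degrees of freedom (median). A standard error is the fold change (log2) divided by the root of its F statistic. An interaction is the Dex response after an inhibitor minus that without it. The procedure was tested on simulated data. Intervals cover 95%. DESeq2 1.42.0 was an alternative, beside other scalings, filters and left-out libraries.

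The members, the partner list and the repair list were chosen with earlier results of these data known. All 9 members and the other annexin rows could be named. Of each list, the 2 largest rises and 2 largest falls that passed in a comparison are named. S100A10, S100A6, AHNAK, ANXA2R, PTGS2, CAV1 and the keratins are also named outside that rule, after their values were seen. The 3 members with the widest range of group means were given the 3 genes most like them among protein-coding genes of at least 5 CPM (pseudocount 0.5). Promoters come from RefSeq (GRCh38.p14), windows of 250 bases.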

Additional observations from a re-analysis of the deposited data

Results flagged for a closer look

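The response of ANXA6 to 3 h of Dex differed between cells without inhibitor and cells given GSK591 for 7 days, by the interaction term of 1.69 on the log2 scale (adjusted p = 0.0185, edgeR). ANXA6 rose in both libraries after GSK591 and overlapped the control without inhibitor. The call was lost without any of 6 of the 8 libraries compared. It was also lost under total-count scaling, where the value was 1.71 and 0.0% of all genes were called.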

How the results depend on the processing

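Of 34 calls of a member, 18 held under every alternative other than total-count scaling, and 11 held under that too. Of 900 values with 1 library left out, 849 kept their side of the threshold, 47 lost it, 4 gained it and 0 reversed. Depth limits ANXA6 and ANXA7 most, at 22 to 115 and 18 to 76 counts per library.

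Counts of members called moved as follows. With total-count scaling they were 1 for Dex at 3 h, beside 5.49% of all genes called. For GSK591 at 2, 4 and 7 days they were 0, 2 and 0, beside 4.29%, 20.2% and 4.95%. For MS023 at 4 and 7 days they were 1 and 5. Between inhibitors at 2 and 7 days they were 1 and 6, the first beside 4.83%. For Dex at 15 min and 3 h after MS023 they were 0 and 3, beside 0.31% and 4.39%. For the GSK591 interaction at 3 h the count was 0, beside 0.0%. The 5 were all higher (1 higher and 2 lower with TMM) beside 70.7% of all genes called, and the 6 all lower (2 higher with TMM) beside 69.9%. At 2 and 4 days of MS023 the members called on that scale were 3 and 1, all higher (2 and 3, all lower, with TMM), beside 40.3% and 49.2%. Without the filter on low counts they were 1 for Dex at 3 h, 2 for GSK591 at 4 days, 1 for MS023 at 7 days and 1 for Dex at 15 min after MS023. DESeq2 gave 1, 2 and 1 for the first, second and last of these and 1 for MS023 at 2 days, and gave no adjusted p for some members in 5 comparisons, whose counts are not given. A fit of the compared groups alone gave 3 for GSK591 at 2 days and 1 between inhibitors at 2 and at 4 days, and DESeq2 size factors gave 2 for GSK591 at 2 days. Leaving out mitochondrial and ribosomal RNA genes moved none of these counts by more than 1.5 times. For the settings other than total-count scaling, left-out libraries included, shares of all genes called are not given here. The member counts there cannot be set against them. The cause of these moves was not tested.

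With 1 library left out, counts ran from 1 to 3 for Dex at 3 h, 0 to 3 for Dex with MS023 against Dex, 0 to 2, 2 to 4 and 1 to 4 for GSK591 at 2, 4 and 7 days, 1 to 3, 2 to 3 and 1 to 4 for MS023, 0 to 1 between inhibitors at 2 days, 1 to 2 and 3 to 6 for Dex at 15 min and 3 h after MS023, and 0 to 1 for the GSK591 interaction at 3 h. Leaving out replicate 2 of Dex with MS023 from every fit was chosen after seeing the data, and lost no call of a member. It added calls of ANXA1 at 3 h of Dex in all 3 settings and of ANXA8 at 2 days of GSK591. Calls of ANXA4 and ANXA3 at 2 and 7 days of MS023, and of ANXA4 between inhibitors at 2 days, were added too. For Dex at 15 min and at 3 h a larger share of all genes was also called in that fit.

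Under total-count scaling 53 of 189 member values changed sign. Of these 40 were called in neither fit, and the 13 called in at least 1 were ANXA11 at 4 days of GSK591 (0.0385), ANXA2 (0.28), ANXA3 (0.0178) and ANXA11 (0.65) at 2 days of MS023, ANXA3 (0.0596) and ANXA8 (0.0045) at 4 days, ANXA2 (0.71), ANXA5 (0.89), ANXA8 (0.58) and ANXA11 (0.94) at 7 days, and ANXA5 (-0.90), ANXA6 (-0.90) and ANXA8 (-0.40) between inhibitors at 7 days.

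Deviations of same-numbered libraries correlated at -0.453 to 0.493 over 105 pairs of groups, with a median of 0.0203. Replicate numbers were therefore not used to pair libraries in the main fit. Whether some of the groups were handled together was not tested. With the replicate number as a block the count at 7 days of MS023 was 4 in place of 3, by ANXA3 (-0.58, adjusted p = 0.0384, edgeR), and 188 of 189 member values kept their call.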
